A study of Lobaria pulmonaria with 11 samples.

Results

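The transcripts described here are mycobiont transcripts of the tree lungwort lichen Lobaria pulmonaria whose level stood above the unirradiated level in every library from thalli under ultraviolet-B (UV-B) lamps. They were chosen by their measured levels, as 93 of 12089 tested transcripts (0.769%) out of 15607 in the fungal table. The lowest of the 8 irradiated libraries had to reach at least 2 times the highest of the 3 day 0 libraries. Their mean over the 8 had to be at least 5 CPM (read counts scaled to a common library size), and the 100 transcripts highest at day 0 were left out. All comparisons with day 0 therefore restate the choice, and values and calls against day 0 are given as a description only. By the rule the label holds for 83 of the 93, 6 of them with a day 0 mean under 1 CPM. The other 10 had 0 counts in all 3 day 0 libraries, so that a lowest irradiated value of 0 also met the rule, and each of these 10 had 0 counts in at least 1 irradiated library.

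In a lichen thallus a fungus, the mycobiont, houses photosynthetic partners, here a green alga and a cyanobacterium. UV-B light is absorbed by DNA, where it links neighbouring pyrimidines, and it raises reactive oxygen in cells. Fungi are known to answer with light-driven and excision repair of DNA, with antioxidant enzymes and with dark pigments, and the upper cortex of this lichen, which is fungal, can turn brown with melanin in strong light. Transcripts are known here by numeric IDs alone, with no gene names beside them in the files, so no member could be placed in any of these pathways and no sequence is shown.

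Thalli had been gathered from aspen trunks, dried, frozen and then kept wet in a climate chamber, and they received UV-B every day. The groups were day 0 with no UV-B (3 libraries), day 2 with a cumulative dose of 28.8 kJ/m2 (3), day 7 with 100.8 kJ/m2 (2) and day 11 with 158.4 kJ/m2 (3). Thalli kept wet without UV-B for as long were not analysed here, so UV-B cannot be told apart from time in the chamber, and among irradiated days dose cannot be told apart from time. Genotype, strain and thallus age are not given in the labels. In RNA of whole thalli, more fungal cells of a kind cannot be told apart from more RNA per cell. The fungal libraries held 8680745 to 17626099 counts. The algal share of the counts of both partners was 8.34% to 15.9% at day 0 and 8.93% to 13.2% in irradiated libraries. CPM were scaled by the trimmed mean of M-values (TMM), with factors of 1.16 to 1.27 at day 0 and 0.864 to 1.01 in irradiated libraries. With library totals as the scale, the median log2 fold change of all tested transcripts was -0.45, -0.35 and -0.47 on days 2, 7 and 11 against day 0, and 53 transcripts, all of them among the 93, met the rule.

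Together the 83 members with a day 0 count went from at most 0.503% to at least 2.14% of the fungal counts. They made up 0.503%, 0.491% and 0.419% of the counts in the day 0 libraries. Day 2 libraries had 2.14%, 2.81% and 3.67%, day 7 libraries had 2.37% and 2.23%, and day 11 libraries had 2.72%, 3.13% and 2.52%. No irradiated library came near the day 0 range, and the 3 day 2 libraries held both the lowest and the highest share of the 8 irradiated ones. Without the member of the highest CPM, 525134, the irradiated libraries held 1.83% to 3.22%. The median member stood at 34.6, 27.3 and 24.9 CPM in the day 0 libraries and at 157 to 237 CPM in the irradiated ones.

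**Figure D1:**
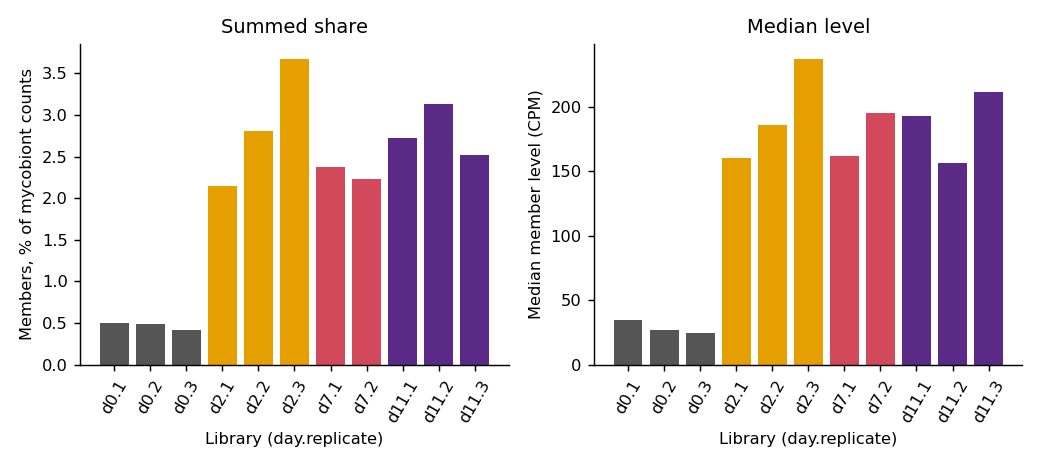
Bars give, for each of the 11 libraries (day.replicate, coloured by day), the percent of mycobiont counts held by the 83 members with a day 0 count (left) and their median level in CPM (right). Day 0 libraries lie at or under 0.503% and 34.6 CPM, and irradiated libraries at or over 2.14% and 157 CPM.

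Single members covered a wide range of levels and of folds. CPM are not divided by transcript length, which the files do not hold, so levels are set side by side here only for the place they take in the libraries. The mean over the 8 irradiated libraries ran from 7.65 to 2199 CPM with a median of 242, against a median of 30.3 CPM at day 0. It reached 100 CPM in 57 of the 83 and 1000 CPM in 8. Ordered by mean CPM among the 12089 tested transcripts, the median member moved from place 5605 at day 0 to place 954 in irradiated libraries, and 6 members entered the first 100. The ratio of the 2 means had a median of 7.09, with quartiles of 4.90 and 13.2. It was 10 or more in 29 members and under 4 in 10. The ratio that the rule used, the lowest irradiated over the highest day 0 library, had a median of 2.59 and a highest value of 36.0. Just inside the limit lay members with ratios of 2.01, 2.01 and 2.02, and just outside it transcripts with 2.00, 1.95 and 1.94, the first of these being 1.997 before rounding. A single transcript among the 100 left out as highest at day 0 also stood at least 2 times above, with a mean of 722 CPM at day 0 and 3153 CPM in irradiated libraries.

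**Figure D2:**
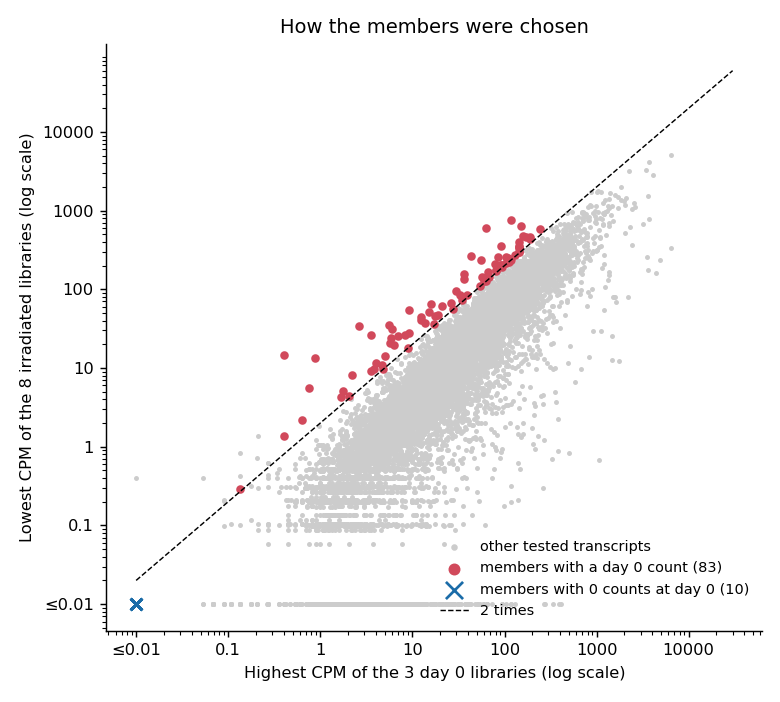
Each point is a tested mycobiont transcript, with its highest CPM of the 3 day 0 libraries on the x axis and its lowest CPM of the 8 irradiated libraries on the y axis, both on log scales with values of 0.01 or less drawn at the edge. The 83 red points lie above the dashed line of 2 times, with ratios up to 36.0, and the 10 blue crosses lie together at 0 on both axes.

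The calls against day 0 rest on the same values as the rule, so they describe the members and are no test of them. By the quasi-likelihood test of edgeR at a Benjamini-Hochberg adjusted p under 0.05, 79 of the 93 members were called higher on day 2, where 8.59% of all tested transcripts were. On day 7 there were 79, beside 9.65% of all tested, and on day 11 there were 84, beside 15.2%. All 83 members with a day 0 count were called on day 11, and 78 members were called on all 3 days. Another 9 were called on none of the days, and all of these had 0 counts at day 0. The share of all tested transcripts called on all 3 days is not given here. The median log2 fold change of the 83 members was 2.90, 2.65 and 2.84 on days 2, 7 and 11, with median standard errors of 0.38, 0.40 and 0.37.

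Transcript 1250288 had the largest ratio of lowest irradiated to highest day 0 level. It held 6, 6 and 3 counts at day 0, or 0.406, 0.320 and 0.268 CPM. Its levels were 30.7, 56.2 and 169 CPM on day 2, 14.6 and 27.7 CPM on day 7, and 67.4, 18.3 and 42.6 CPM on day 11. Every irradiated library was far above all day 0 libraries, and the irradiated days overlapped with one another. Relative to day 0, the log2 fold change on day 2 was 7.95 (SE 0.89), that on day 7 was 5.94 (SE 0.86) and that on day 11 was 6.96 (SE 0.86), and the few counts at day 0 leave the size of these folds imprecise.

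Transcript 525134 had the highest mean level of the members in irradiated libraries and moved from place 7477 to place 26. It stood at 20.7, 12.5 and 8.94 CPM at day 0 and at 3558, 3869 and 4933 CPM on day 2. On day 7 it was at 61.4 and 582 CPM, and on day 11 at 435, 3196 and 956 CPM. The day 2 libraries were all high and close together, while the libraries of days 7 and 11 differed among themselves by several fold. Day 7 was not called lower than day 2 (log2 fold change -3.68, SE 1.09, edgeR adjusted p = 0.0781), and neither was day 11 (-1.43, SE 0.84, adjusted p = 0.310). Its log2 fold change on day 7 against day 0 was 4.52 (SE 0.99, edgeR adjusted p = 0.0156) and fell to 2.13 without day 7 replicate 2. The call of day 7 against day 0 was lost without day 0 replicate 2 (edgeR adjusted p = 0.0593) or 3 (0.0578).

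**Figure D3:**
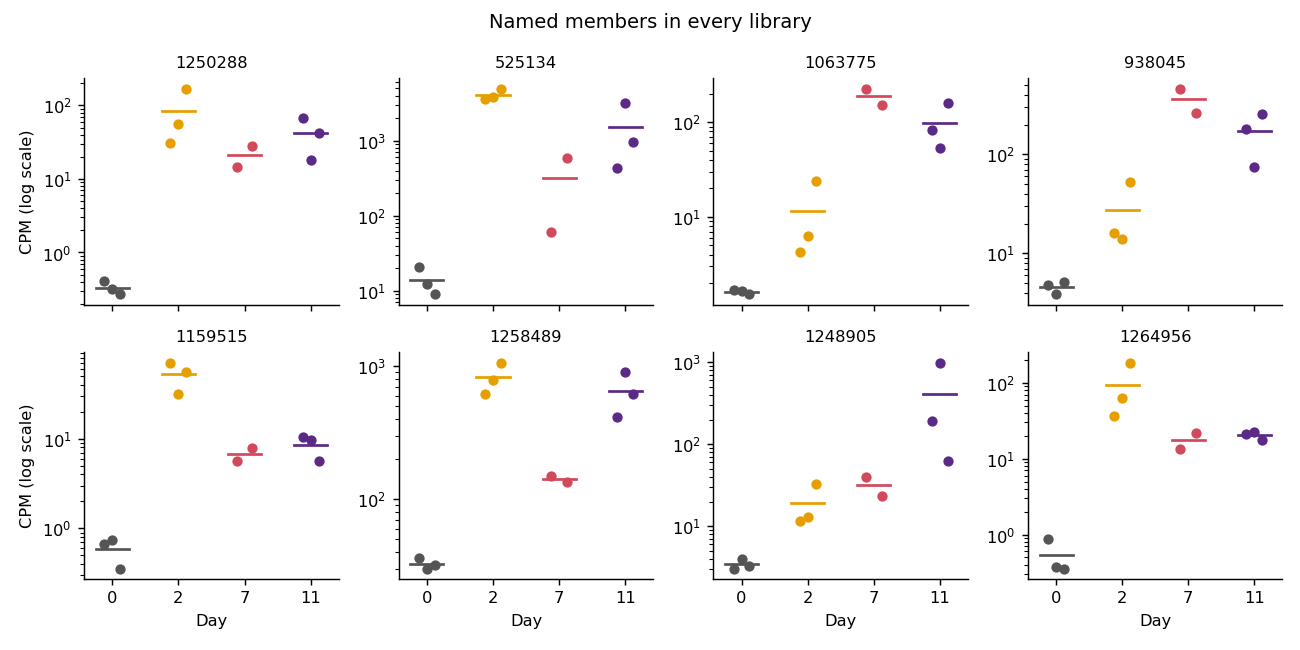
Levels in CPM (log scale) of the 8 named members in every library by day, with 1 point per library and a line at the day mean. In all 8 panels each irradiated library lies above each day 0 library, as the rule required, while the order of days 2, 7 and 11 differs from panel to panel.

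The choice was repeated with each library left out in turn, as a description and not a test. For each library in turn, transcripts with a day 0 count were chosen by the same rule from the other 10 libraries, with the filter and the scaling left as they were. With a day 0 library left out, 102 to 110 transcripts were chosen, and 74.5% to 82.4% of them kept the distance of 2 times in the library left out. In the same libraries 96.1% to 98.2% of those chosen lay below all irradiated libraries, as did 18.1% to 22.2% of all tested transcripts. With an irradiated library left out, 85 to 117 were chosen, and 89.7% to 100% of them lay above the day 0 libraries, as did 33.3% to 36.7% of all tested. The distance of 2 times was kept by 97.6% in day 11 replicate 1 and by 70.9% in day 2 replicate 1, the highest and the lowest share.

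Day 2 replicate 1 was also the library that limited membership most. It had the lowest level of the 8 irradiated libraries in 22 of the 83 members, day 7 replicate 1 had it in 21, and day 2 replicate 3 in 1. Without day 2 replicate 1 the rule gave 127 transcripts, among them all 93. Within day 2, replicate 3 was the highest of the 3 libraries in 67 of 83 members (80.7%, beside 28.7% of all tested transcripts), and replicate 1 was the lowest in 52 (62.7%, beside 39.5%). The algal share of counts was 9.32%, 13.2% and 8.93% in day 2 replicates 1, 2 and 3, and the TMM factors were 0.871, 0.982 and 0.902. Their part in the order of the replicates was not tested. The coefficient of variation between replicates had a median over the 83 members of 0.221 at day 0, 0.308 on day 2, 0.202 on day 7 and 0.326 on day 11. Over all tested transcripts it was 0.198, 0.241, 0.174 and 0.219.

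**Figure D4:**
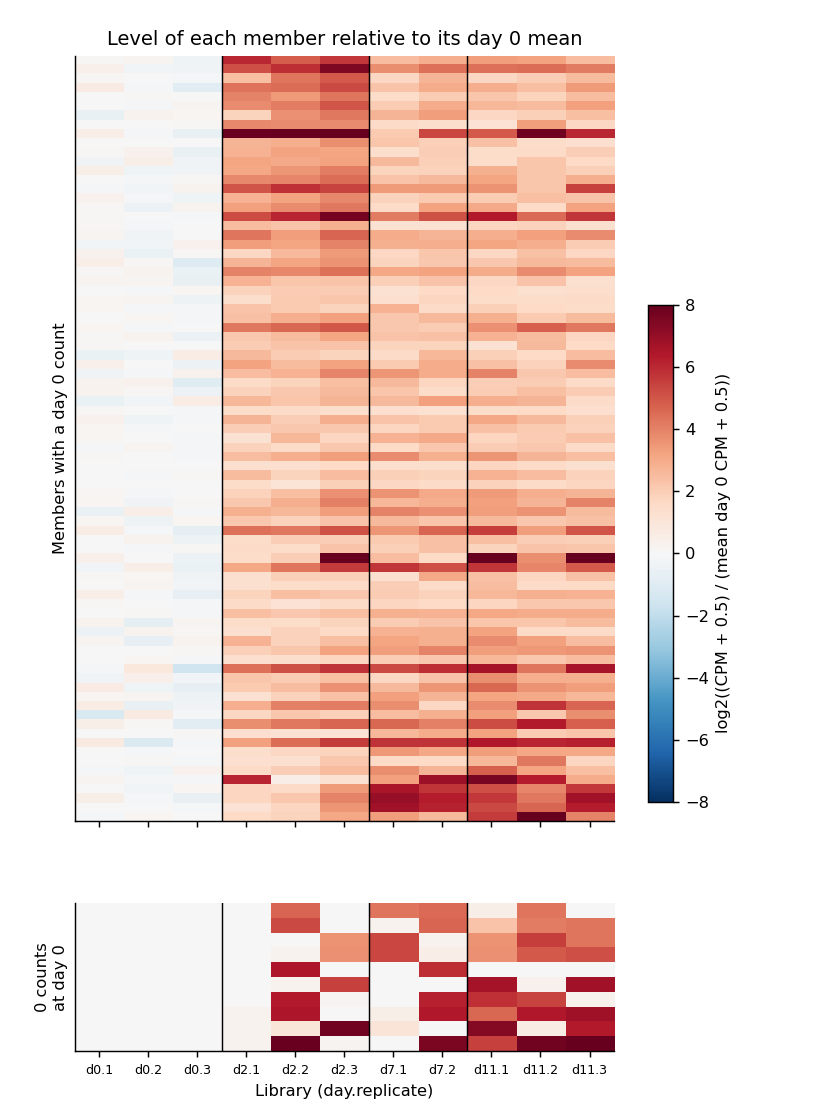
Each row is a member and each column a library (day.replicate), coloured by log2 of the level over the day 0 mean after adding 0.5 CPM to both, with values over 8 drawn in the darkest red. The upper block holds the 83 members with a day 0 count, ordered by their change from day 2 to day 11, and the lower block the 10 members with 0 counts at day 0, which are red in some irradiated libraries and blank in others.

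The irradiated days were compared with one another to see whether the members stayed at 1 level or moved further. The rule treats the 8 irradiated libraries alike, so these differences did not choose the members, although a member low in any irradiated library could not enter. The day of the highest mean was day 2 in 35 of the 83 members (42.2%, beside 41.1% of all tested), day 7 in 22 (26.5%, beside 30.6%) and day 11 in 26 (31.3%, beside 28.3%). The order day 2, day 11, day 7 from high to low was found in 25 members (30.1%, beside 20.9% of all tested), and the order day 2, day 7, day 11 in 10 (12.0%, beside 20.2%). The median log2 fold change of the 83 was -0.18 for day 7 against day 2 and 0.03 for day 11 against day 2. The median absolute change was larger than in the table as a whole, at 0.68 against 0.43 for day 7 and 0.79 against 0.41 for day 11. The median standard error was larger as well, at 0.39 against 0.34 for day 7 and 0.35 against 0.31 for day 11.

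On day 7, 5 of the 93 members were called higher than on day 2 (5.38%, beside 2.23% of all tested) and 11 were called lower (11.8%, beside 3.33%). On day 11, 11 members were called higher than on day 2 (11.8%, beside 4.08% of all tested) and 13 lower (14.0%, beside 6.60%). In all, 26 members were called in at least 1 of these comparisons, which share the day 2 libraries, and none of the 10 members with 0 counts at day 0 was among them. There were 5 members called higher and 9 called lower on both days, and none was called in opposite directions. The share of all tested transcripts that met these joint conditions is not given here, so the 26, 5 and 9 describe the members alone. These numbers of calls moved when single libraries were left out, and calls over all 12089 tested transcripts fell too. Without day 2 replicate 1, those higher than day 2 went from 270 to 123 on day 7 and from 493 to 244 on day 11. Without day 2 replicate 3, those lower than day 2 went from 403 to 264 on day 7 and from 798 to 541 on day 11. For day 7 the 5 higher were 3 without day 2 replicate 1. Dropping either day 7 replicate leaves 1 library at day 7, so numbers of calls from those fits are not given. The 11 lower on day 7 became 7 when day 0 replicate 1, day 0 replicate 2 or day 11 replicate 1 was dropped. Over all tested transcripts the 403 then became 256, 271 and 365. With day 2 replicate 3 dropped, 5 members were called lower on day 7. For day 11 the 11 higher became 7 when day 0 replicate 1 or day 11 replicate 3 was dropped. Over all tested transcripts the 493 then became 397 and 398. With day 11 replicate 1, day 2 replicate 1 or day 2 replicate 2 dropped, the members called were 6, 4 and 5. All tested transcripts then gave 207, 244 and 365 such calls. The 13 lower on day 11 were 5 without day 2 replicate 3, and leaving out day 11 replicate 1, 2 or 3 gave 5, 7 or 8. Over all tested transcripts, leaving out these day 11 libraries turned 798 into 292, 409 and 545.

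**Figure D5:**
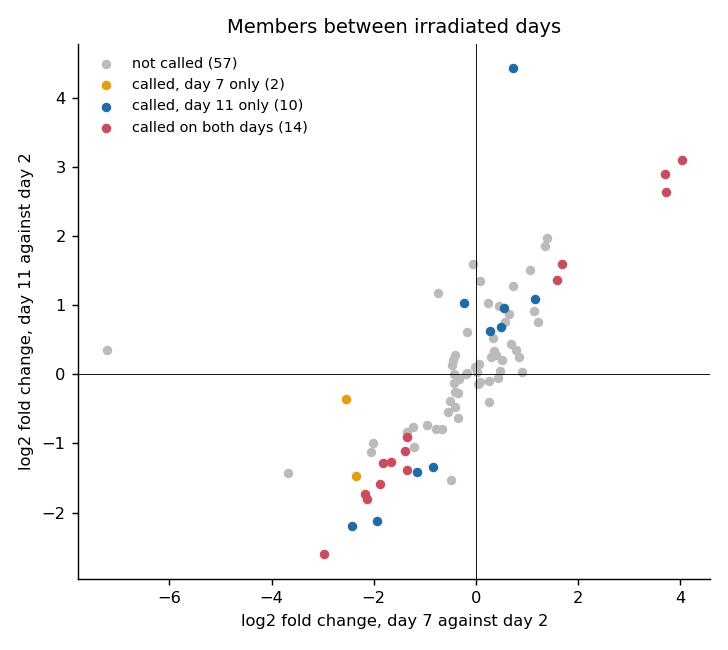
Each point is 1 of the 83 members with a day 0 count, with its log2 fold change of day 7 against day 2 on the x axis and of day 11 against day 2 on the y axis, coloured by whether edgeR called it. The 9 members called lower on both days lie below 0 on both axes and the 5 called higher lie above 0 on both. Other members lie further out, and the axes share their day 2 libraries.

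The members that rose most from day 2 to day 7 were low on day 2. Transcript 1063775 stood at 1.69, 1.65 and 1.52 CPM at day 0 and at 4.31, 6.36 and 24.0 CPM on day 2. It then reached 226 and 152 CPM on day 7 and 83.3, 53.6 and 161 CPM on day 11. The libraries of days 7 and 11 all lay above those of day 2. Its log2 fold change was 4.03 for day 7 against day 2 (SE 0.69, edgeR adjusted p = 0.0141) and 3.10 for day 11 (SE 0.64, adjusted p = 0.0177). The day 7 call was lost without day 7 replicate 1 (adjusted p = 0.0580) or 2 (0.0509). In edgeR fits of the 2 days alone both calls were lost (adjusted p = 0.0984 for day 7 and 0.0776 for day 11).

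Transcript 938045 followed the same course at a higher level. It had 4.74, 3.84 and 5.10 CPM at day 0, 16.1, 14.1 and 52.2 CPM on day 2, 460 and 261 CPM on day 7, and 179, 75.3 and 257 CPM on day 11. Again no library of days 7 or 11 came as low as those of day 2. The log2 fold change was 3.72 for day 7 against day 2 (SE 0.64, edgeR adjusted p = 0.0141) and 2.63 for day 11 (SE 0.59, adjusted p = 0.0231), and the day 7 call was lost without day 7 replicate 1 (adjusted p = 0.0643) and in the fit of the 2 days alone (0.0837).

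Transcript 1248905 rose most from day 2 to day 11. It was at 3.04, 4.00 and 3.31 CPM at day 0, at 11.7, 13.1 and 32.9 CPM on day 2, and at 39.9 and 23.5 CPM on day 7. The day 11 libraries had 191, 988 and 61.6 CPM, all above the other days and far apart from one another. Its log2 fold change of day 11 against day 2 was 4.43 (SE 0.95, edgeR adjusted p = 0.0214). The call was lost without day 2 replicate 1 (adjusted p = 0.0762) or 2 (0.0660) and in the fit of the 2 days alone (0.0907), and the value was 2.72 without day 11 replicate 2.

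Transcript 1159515 had the largest called fall after day 2 on both later days. From 0.677, 0.746 and 0.358 CPM at day 0 it stood at 70.3, 31.3 and 55.7 CPM on day 2, at 5.62 and 7.78 CPM on day 7 and at 10.5, 9.62 and 5.67 CPM on day 11. The 3 ranges did not overlap between day 0, day 2 and the later days. It fell by 2.96 on the log2 scale from day 2 to day 7 (SE 0.45, edgeR adjusted p = 0.00919) and by 2.61 to day 11 (SE 0.38, adjusted p = 0.00476). The day 7 call was lost without day 7 replicate 1 (adjusted p = 0.0643) or 2 (0.0613) and in the fit of the 2 days alone (0.0535).

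Transcript 1258489 was low on day 7 alone among the irradiated days. Its levels were 35.9, 30.2 and 32.3 CPM at day 0, 618, 788 and 1060 CPM on day 2, 150 and 134 CPM on day 7, and 413, 901 and 622 CPM on day 11. Days 2 and 11 overlapped, and both day 7 libraries lay below them. Day 7 was 2.53 lower than day 2 on the log2 scale (log2 fold change -2.53, SE 0.35, edgeR adjusted p = 0.00626), a call that was lost without day 7 replicate 2 (adjusted p = 0.0650). Day 11 was not called against day 2 (log2 fold change -0.35, SE 0.29, adjusted p = 0.472) or against day 7 (2.18, SE 0.35, adjusted p = 0.294).

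Transcript 1264956 was called lower on day 11 than on day 2, and this call rests on single libraries. It had 0.880, 0.373 and 0.358 CPM at day 0, 36.0, 62.2 and 184 CPM on day 2, 13.3 and 21.9 CPM on day 7, and 21.3, 22.5 and 17.7 CPM on day 11. All libraries of days 7 and 11 lay below those of day 2. Its log2 fold change of day 11 against day 2 was -2.20 (SE 0.55, edgeR adjusted p = 0.0349) and -1.26 without day 2 replicate 3 (adjusted p = 0.0839). The call was also lost without day 0 replicate 2 (adjusted p = 0.0526) and without day 11 replicates 1, 2 or 3 (0.105, 0.0879 and 0.0973), as well as in the fit of the 2 days alone (0.0903).

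Between day 7 and day 11 edgeR called 0 of the 93 members, as it called 0% of all tested transcripts in either direction. At an unadjusted p under 0.05 there were 9 members (9.68%, beside 5.15% of all tested), and DESeq2 called 3 members, all higher on day 11, where it called 43 higher and 29 lower of the 12089 tested. The smallest edgeR adjusted p among the members was 0.294. The median log2 fold change of the 83 members was 0.19, with a median standard error of 0.39.

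The 10 members with 0 counts in every day 0 library were present in some irradiated libraries and not in others. Each stood at 1 CPM or more in 2 to 5 of the 8 irradiated libraries, with highest levels of 12.1 to 123 CPM. Over the day 0 group 0 counts allow up to 3 by the sampling of reads alone, or 0.0671 CPM. The mean irradiated level was at least 78.6-fold higher than that in the member with the lowest mean. This limit leaves out the spread between libraries, which was wider than sampling noise. Day 2 replicate 1 held none of the 10 at 1 CPM or more, day 2 replicates 2 and 3 held 6 and 4, day 7 replicates 3 and 6, and day 11 replicates 8, 7 and 7. Transcript 1246404, singled out after its values had been seen, has a similar course among the 83. It stood at 0.406, 0.160 and 0 CPM at day 0, at 1081, 657 and 712 CPM in day 2 replicate 3 and day 11 replicates 1 and 3, and at 1.37 to 8.55 CPM in the other 5 irradiated libraries. Its place among the members rests on counts of 6, 3 and 0 at day 0. The place of 1287790, also among the 83, rests on counts of 2, 0 and 0 at day 0. It had 5 and 9 counts in day 2 replicates 2 and 3, and day 2 was not called against day 0 (edgeR adjusted p = 0.0821).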

How the data were processed

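The authors deposited raw counts per transcript ID and library, separately for each partner. The tools used were edgeR, HTSeq 0.5.4, HISAT2, Trimmomatic 0.39 and FastQC 0.11.8, per the submitters' processing notes, which are held here without settings or order. Not given in the sources used here were genome build, gene models and strand setting, hence overlapping transcripts and near-identical copies remain uncertain.

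Counts were analysed in R 4.3.3 with edgeR 4.0.16. A filter by day kept transcripts with about 10 counts in at least 2 libraries. Among the members, 14 had under 10 counts in every day 0 library and passed through irradiated libraries, and 78 had 10 or more in at least 2 day 0 libraries. The named 1250288 and 1264956 had under 10 counts in at least 2 day 0 libraries, so both passed through irradiated libraries. The named 1159515 had 10, 14 and 4 counts at day 0. As the filter scales counts by library size, it passed through irradiated libraries too. CPM and the fit used TMM factors. One robust quasi-likelihood fit covered all 11 libraries, with 1 mean per day, and p-values were adjusted over all 12089 transcripts. The standard error is the absolute log2 fold change over the square root of F. The procedure was tested on simulated data. No pair of libraries of a day agreed within sampling noise (chi-square per degree of freedom 56.0 or more). The labels number the libraries of a day as replicates of a thallus, and whether each came from a separate thallus was not checked.

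Alternatives were other scalings and filters, DESeq2 1.42.0, a replicate block, fits of the 2 days alone and each library left out. Named transcripts are the members with the largest ratio and the highest mean, and up to 2 called in each direction with the largest change between irradiated days. The members and this rule were chosen with earlier results of these data known.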

Additional observations from a re-analysis of the deposited data

Results flagged for a closer look

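For 26 members, of which 6 were named by the rule for single transcripts, the change against day 0 differed between irradiated days by the test of that difference itself. The share of all tested transcripts with at least 1 such difference is not given here. Among the 6, from day 2 to day 7 the log2 fold change was 4.03 in 1063775, 3.72 in 938045, -2.96 in 1159515 and -2.53 in 1258489. From day 2 to day 11 it was 4.43 in 1248905, 3.10 in 1063775, -2.61 in 1159515 and -2.20 in 1264956. The comparisons share their day 2 libraries. Of these 8 calls, that of 1159515 on day 11 was the one that held under all 18 alternatives tried, with edgeR or DESeq2 adjusted p from 2.49e-09 to 0.0222.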

How the results depend on the processing

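The number of members was 53 with library totals in place of TMM, all among the 93. It was 228, 41 and 26 with a ratio of 1.5, 3 and 4 in place of 2. Other scalings, filters and level limits gave 81 to 107, and leaving out 1 library gave 92 to 127. The 83 members with a day 0 count were set apart after the data had been seen.

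Calls between irradiated days depended on the tool and the libraries. For day 7 against day 2, DESeq2 called 8 members higher and 22 lower (692 and 995 of the 12089 tested), and the fit of these 2 days alone called 2 and 2 (52 and 51 of all tested, against 270 and 403 in the fit of all days). For day 11 against day 2, DESeq2 called 17 higher (925 of all tested), and the fit of the 2 days alone called 2 higher and 5 lower (221 and 333 of all tested, against 493 and 798). For day 11 against day 7, DESeq2 called 3 higher (43 of all tested). In these fits, calls over the whole table moved in the same direction as those of the members. This did not always hold with 1 library left out. Without day 2 replicate 1, 14 members were called lower on day 11 than on day 2, against 13 with all libraries. Over all tested transcripts these calls fell from 798 to 481. Ranges with 1 library left out are given for fits that kept both day 7 libraries. On day 7, 3 to 6 members were called higher and 5 to 11 lower than on day 2. Over all tested transcripts these were 123 to 260 and 206 to 400. On day 11, 4 to 11 members were called higher and 5 to 14 lower than on day 2. Over all tested transcripts these were 207 to 473 and 292 to 706. The cause was not tested. No call between named members and days changed direction under any alternative run.

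With a replicate block, 6 members were called lower on day 7 and 7 higher on day 11 than on day 2 (152 and 307 of all tested, against 403 and 493 without it). The day 11 calls of 1248905 and 1264956 were lost under it (edgeR adjusted p = 0.0690 and 0.0878). In the labels, same-numbered libraries share only a number. Deviations from the day means correlated over 0.1 in 4 of 15 such pairs, and all 15 ran from -0.0872 to 0.389. Replicate 2 of day 2 did so with replicate 2 of days 0, 7 and 11 (0.221, 0.389 and 0.124). The other pair was replicate 1 of days 2 and 7 (0.122). Whether same-numbered libraries share a thallus was not tested. With 2 or 3 libraries a day, a change that misses the threshold may still be present.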

Other observations

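A set of 3 members moved nearly in parallel over the irradiated libraries. Transcripts 938045, 1063775 and 1325909 gave the 3 highest of 3403 pairwise correlations among the 83 members, with Pearson r of 0.991, 0.989 and 0.988 over the 8 irradiated libraries on the scale log2(CPM + 0.5), where the median pair had 0.117. The libraries are shared and fall into 3 days, and the trio was noticed in the data, so these values are a description. The third of them, 1325909, stood at 3.86, 2.40 and 1.52 CPM at day 0 and at 9.77, 13.2 and 48.7 CPM on day 2. It reached 381 and 244 CPM on day 7 and 152, 57.5 and 323 CPM on day 11. Its level was between 0.608 and 1.26 times that of 938045 in each irradiated library. Whether the 3 share sequence could not be checked without gene models.

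The members with 0 counts at day 0 fell into sets that appeared in the same libraries. Of the 10, 3 reached 1 CPM in day 2 replicate 2, day 7 replicate 2 and all 3 day 11 libraries. Another 2 did so in day 2 replicate 3, day 7 replicate 1 and all 3 day 11 libraries. A further 2 did so in day 2 replicate 3 and day 11 replicates 1 and 3, the same 3 libraries in which 1246404 was high. These sets were read from the data after the values had been seen.

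The mirrored rule, with the highest irradiated level at most 1/2 of the lowest day 0 level and a mean of 5 CPM at day 0, gave 34 fungal transcripts (0.281% of those tested), of which 1 had 0 counts in every irradiated library. Applied to the green alga, the rule for raised transcripts gave 8 of 9862 tested (0.0811%), at 938418 to 2677845 counts per library, and 3 of the 8 had 0 counts at day 0.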
